A study of Mus musculus with 12 samples.

Results

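Immediate early genes were followed across primordial germ cells (PGCs) and gonadal soma of male and female mouse embryos at E13.5. PGCs are the precursors of sperm and eggs, and the soma is the mixture of supporting, steroidogenic, stromal, vascular and blood cells around them. The genes were chosen by symbol: Jun, Junb, Jund, Fos, Fosb, Egr1, Ier2, Atf3, Dusp1 and Zfp36. Of these 10 genes, 8 were rows of both deposited tables, among 12845 genes in all. Fosb and Atf3 were not analysed here. The embryos were Oct4GFPxICR crosses, which carry a green fluorescent protein (GFP) reporter under control of Oct4, a gene active in germ cells. Flow cytometry split each gonad suspension by GFP: the positive cells were taken as PGCs and the negative cells as soma. With both sexes this gave 4 groups of 3 libraries each. No group was treated, and all 4 carry the same reporter cross. The labels do not say whether the 3 libraries of a group came from separate litters, so p-values cannot be read as a spread between litters. For levels per cell, the fit drew each gene's spread wholly from a trend over all genes. Those p-values do not follow the gene's own libraries.

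Immediate early genes are transcribed within minutes of a stimulus, without new protein synthesis, when ERK, JNK and p38 kinases act on factors such as SRF, its ETS partners and CREB that are already bound at their promoters. Their products are transcription factors that pair as AP-1 (Jun and Fos proteins), zinc finger factors (Egr1), and proteins that shut the response off: Dusp1 removes phosphate from the kinases, and Zfp36 (tristetraprolin) speeds the decay of messages with AU-rich elements, Fos among them. The messages are short-lived, and tissue dissociation and cell sorting are known to be able to induce them.

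The study asked about hypertranscription, a higher output of transcripts per cell, and each gene therefore has 2 values. External ERCC control RNA was added to each sample at 4 uL of a 1 in 10000 dilution per 10000 cells. The per-cell scale is the deposited log2 table normalized to cell number. The read depth scale is the deposited log2 table normalized to read depth, by a transform that was not given. It is read here as following a gene's share of the RNA, with compressed differences (described below). Whole reads recovered from the per-cell table gave 6454322 to 24791414 reads per library, summed over the 12845 genes kept there. Levels below are in CPM (reads scaled to a total of 1000000 over these genes), so reads of other genes are not counted. Per cell, the median gene of a library lay at log2 5.81 to 6.07 in PGCs, 4.29 to 5.25 in male soma and 3.59 to 3.95 in female soma. Male soma replicate 3 stood apart at 5.25, against 4.33 and 4.29 in the other male soma libraries. By read depth the library medians ran from 8.56 to 8.82. In bulk RNA, fewer cells of a type that expresses a gene and less RNA per cell cannot be told apart.

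The sorted groups carried the markers of their labels. Summed over 6 germ cell markers (Pou5f1, Ddx4 and others), PGC libraries held 3055 to 4466 CPM, male soma 6.78 to 11.5 and female soma 11.6 to 148. All the female soma libraries held Xist, and Ddx3y from the Y chromosome was at 0 CPM in all female PGC libraries and at 0.111 to 5.06 CPM in female soma, against 85.2 to 107 CPM in male soma. The summed levels of 5 gonadal stroma markers were 9.15 to 46.2 CPM in PGCs and 7975 to 11271 CPM in soma. The 8 macrophage markers summed to 0.164 to 11 CPM in PGCs, 156 to 208 in male soma and 317 to 498 in female soma. Endothelial markers (6 genes) summed to 6.44 to 11.7 CPM in PGCs and 104 to 169 in soma. Leydig cell markers (5 genes) summed to 3373 to 4706 CPM in male soma and 13.0 to 14.3 in female soma. Sertoli cell markers (4 genes) reached 35.0 to 84.0 CPM in male PGCs against 519 to 614 in male soma, and pregranulosa markers (4 genes) 16.5 to 33.0 CPM in female PGCs against 330 to 388 in female soma. The 6 of 10 erythroid markers that were measured summed to 3383 to 8578 CPM in male soma and 17586 to 29541 in female soma.

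RefSeq promoter windows (build GRCm38.p6) were found for 6 of the 8 measured genes: Jun, Junb, Jund, Fos, Dusp1 and Zfp36. Within the 250 bases before the RefSeq start, 7 motifs were searched on both strands. Among all 32851 windows, the CArG box bound by SRF was in 1.47%, the full cyclic AMP response element TGACGTCA in 1.55%, its core TGACG in 17.8%, the AP-1 site TGANTCA in 6.75%, the Egr site GCGTGGGCG in 0.536%, the ETS core CCGGAA in 12.0% and the TATA box TATAAA in 12.4%. The full element contains the core. Stretches of the Fos, Dusp1 and Zfp36 windows are shown because these are the genes with a window whose PGC and soma difference itself differed between the sexes on the read depth scale. The Fos stretch lies at chr12:85473640-85473889 on the plus strand, the Dusp1 stretch at chr17:26508520-26508722 on the minus strand, and the Zfp36 stretch at chr7:28379267-28379296 on the minus strand. Each is written 5′ to 3′ along its gene, with motif matches in capitals.
Fos: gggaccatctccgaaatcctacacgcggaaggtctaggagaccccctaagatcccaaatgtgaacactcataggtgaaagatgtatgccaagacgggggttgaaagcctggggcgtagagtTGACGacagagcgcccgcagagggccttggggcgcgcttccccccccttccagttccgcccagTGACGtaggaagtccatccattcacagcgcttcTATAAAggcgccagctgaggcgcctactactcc
Dusp1: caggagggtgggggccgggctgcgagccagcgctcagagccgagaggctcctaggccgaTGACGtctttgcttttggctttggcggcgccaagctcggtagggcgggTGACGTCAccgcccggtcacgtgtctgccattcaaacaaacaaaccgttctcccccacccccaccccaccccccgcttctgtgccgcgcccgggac
Zfp36: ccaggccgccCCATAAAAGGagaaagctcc

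In the Fos window the capitals mark the core TGACG at 129 to 125 and at 66 to 62 bases before the start, and the TATA box at 33 to 28. In the Dusp1 window they mark the core at 191 to 187 bases and the full element TGACGTCA at 143 to 136 bases before the start. The Dusp1 stretch ends 48 bases before the start, because GENCODE places an exon in the rest. In the Zfp36 stretch they mark a CArG box at 58 to 49 bases before the RefSeq start, and the same window held CCGGAA at 92 to 87 bases. GENCODE places the Zfp36 window inside an exon, with a gene start 1025 bases farther upstream, so only the 30 bases around the match are printed. The Junb window held 1 core TGACG, at 106 to 102 bases. The Jun and Jund windows held none of these letters. The GENCODE gene start lies 53656 bases from the RefSeq start for Dusp1 and 1210 bases from it for Jund, so these windows too depend on the annotation. A match is a description of the letters and not evidence of binding.

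Per read, the immediate early genes took a smaller share of PGC RNA than of soma RNA. The 8 genes together made up 268 to 313 CPM in male PGCs, 155 to 235 CPM in female PGCs, 577 to 813 CPM in male soma and 702 to 849 CPM in female soma. The PGC and soma libraries did not overlap in this sum in either sex. Per kilobase of exon, Jund was the highest of the 8 in each group, with an RPKM (CPM per kilobase) of 128 ± 11.4 (SD, n = 3) in male PGCs, 88.2 ± 19.4 in female PGCs, and of 181 ± 36.1 and 154 ± 16.5 in the soma of males and females. In male PGCs the lowest was Fos, at 0.562 ± 0.170 RPKM (SD, n = 3). In female PGCs the lowest were Egr1, at 0.390 ± 0.256, and Zfp36, at 0.406 ± 0.129, whose libraries overlapped.

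**Figure D1:**
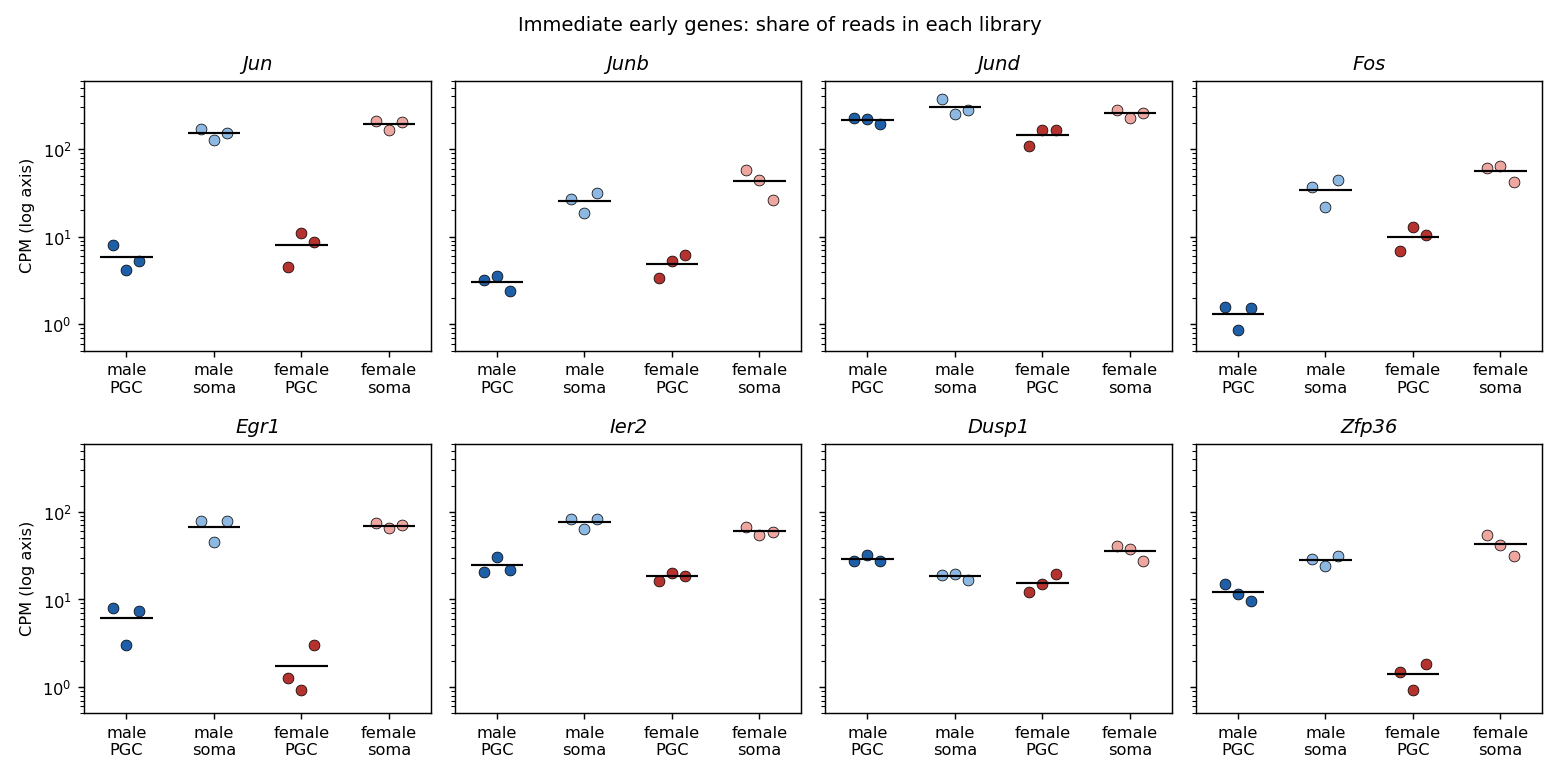
CPM (log axis) of the 8 measured immediate early genes in each of the 12 libraries, by group; points are libraries and bars are means of 3 libraries. Jun sits at 4.18 to 11.2 CPM in PGCs and at 129 to 209 CPM in soma, Fos is lowest in male PGCs, and Zfp36 is lowest in female PGCs.

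The Jun subunits of AP-1 behaved differently from one another. Jun (chromosome 4, 95049034 to 95052222, minus strand, GRCm38), the founding AP-1 subunit, stood at 8.03, 4.18 and 5.25 CPM in the male PGC libraries (replicates 1, 2 and 3) and at 170, 129 and 155 CPM in male soma. In the female libraries it stood at 4.48, 11.2 and 8.80 CPM in PGCs and at 209, 166 and 203 CPM in soma. All PGC libraries were below all soma libraries, and neither the PGC groups nor the soma groups separated by sex. Per cell, Jun was lower in PGCs by a log2 difference of −3.11 ± 0.32 (SE) in males, an 8.64-fold difference, and of −2.22 ± 0.32 in females. The adjusted p values were 2.19e-21 and 9.23e-12 (limma on the deposited log2 values of 12 libraries, two-sided, with Benjamini-Hochberg adjustment over 12845 genes; a gene was called at an adjusted p under 0.05). On the read depth scale the differences were −3.50 ± 0.20 and −3.56 ± 0.20, with limma adjusted p values of 1.27e-09 and 1.59e-09.

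The read depth table is compressed: its values move by 0.607 (Zfp36) to 0.799 (Jund) for each log2 unit of reads among the 8 genes. With limma's voom on the recovered reads, Jun differed by −4.59 ± 0.27 in males and −4.93 ± 0.30 in females. Differences on the read depth scale are therefore smaller than those of the reads, and for the 8 genes voom values are given where they move a fold by more than 1.5 times or change a call. Over all genes the values moved by 0.291 per log2 unit under 100 mean reads and by 0.776 at 10000 or more. Values of the listed genes are given without voom.

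Junb (chromosome 8, 84974484 to 84978718, minus strand), an AP-1 subunit of weaker transactivating activity than Jun, stood at 3.20, 3.57 and 2.43 CPM in male PGCs and 27.0, 18.7 and 31.7 CPM in male soma. In females it stood at 3.36, 5.27 and 6.22 CPM in PGCs and 58.1, 44.5 and 26.5 CPM in soma. By share of reads, PGC and soma libraries did not overlap in either sex. Per cell, Junb was lower in male PGCs by −1.42 ± 0.40 (limma adjusted p = 0.000636). The female difference per cell was −0.65 ± 0.40 and did not pass (limma adjusted p = 0.117), and the female libraries overlapped. Without male soma replicate 3 and female soma replicate 3, whose medians per cell were the highest of their groups, it was −0.85 and passed (limma adjusted p = 0.0260). By read depth the differences were −1.86 ± 0.21 in males and −2.06 ± 0.21 in females (voom −2.82 ± 0.45 and −3.25 ± 0.45), and both were called. Junb shares 351 bases with Prdx2 on the opposite strand, which stood at 101 to 173 CPM in PGCs and 344 to 753 CPM in soma. Which strand setting was used to count is not known, and the part of Prdx2 reads in Junb was not tested.

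Jund (chromosome 8, 70698949 to 70700616, plus strand) encodes the AP-1 subunit that is expressed without stimulation in most cells. It stood at 229, 218 and 192 CPM in male PGCs, 370, 255 and 282 in male soma, 110, 166 and 166 in female PGCs and 283, 228 and 259 in female soma. Here the direction depended on the scale. Per cell, Jund was higher in PGCs, by 1.14 ± 0.28 or 2.20-fold in males and by 1.61 ± 0.28 or 3.04-fold in females. The limma adjusted p values were 6.43e-05 and 1.12e-08. Both lay under the difference of the median gene, which was 1.42 in males and 2.36 in females. By read depth Jund was lower in female PGCs, by −0.65 ± 0.13 (limma adjusted p = 0.000414). In males the difference was −0.30 ± 0.13, at the edge of the threshold (limma adjusted p = 0.0496, and 0.0513 with voom). Without any one of 8 of the 12 libraries that call was lost, with adjusted p values up to 0.252 without male soma replicate 1.

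Fos (chromosome 12, 85473890 to 85477273, plus strand), the AP-1 subunit that needs a Jun partner to bind DNA, was the one of the 8 genes called higher in female than in male PGCs. It stood at 1.58, 0.861 and 1.52 CPM in male PGCs, from 33, 21 and 27 reads. In female PGCs it stood at 6.85, 12.9 and 10.5 CPM, from 153, 83 and 110 reads. Soma held 36.8, 22.0 and 44.8 CPM in males and 61.7, 63.8 and 42.0 CPM in females. Every female PGC library was above every male PGC library, and every PGC library was below every soma library. Per cell, Fos was lower in male PGCs than in male soma by −3.05 ± 0.39 (8.27-fold, limma adjusted p = 3.73e-14). In females the difference per cell was −0.06 ± 0.39 (limma adjusted p = 0.889) and did not pass, and the libraries overlapped. On the read depth scale Fos was lower in PGCs of both sexes, by −2.85 ± 0.21 in males and −1.79 ± 0.21 in females (voom −4.50 ± 0.69 and −2.66 ± 0.34), with limma adjusted p values of 1.16e-08 and 1.83e-06.

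Egr1 (chromosome 18, 34859823 to 34864984, plus strand), a zinc finger factor induced by growth factors through ERK, stood at 7.98, 3.04 and 7.40 CPM in male PGCs and 77.9, 45.1 and 78.6 CPM in male soma. In females it stood at 1.25, 0.930 and 3.06 CPM in PGCs, from 28, 6 and 32 reads, and at 73.7, 64.7 and 70.4 CPM in soma. PGC and soma libraries were apart in both sexes. Per cell, Egr1 was lower in PGCs by −1.90 ± 0.38 in males and −3.03 ± 0.38 in females (limma adjusted p = 1.14e-06 and 4.60e-15). By read depth it was lower by −2.48 ± 0.25 and −3.69 ± 0.25 (voom −3.40 ± 0.35 and −5.45 ± 0.81), and both were called.

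Ier2 (chromosome 8, 84661331 to 84662852, minus strand), a nuclear protein of the early growth factor response, stood at 20.6, 30.8 and 22.0 CPM in male PGCs, 82.7, 64.2 and 81.9 in male soma, 16.2, 20.3 and 18.5 in female PGCs, and in female soma 67.6, 54.9 and 58.7. By share of reads each PGC library was below each soma library. Per cell, the male difference was −0.03 ± 0.32 (limma adjusted p = 0.935), and the female difference was 0.71 ± 0.32, called higher in PGCs (limma adjusted p = 0.0284). That female call was lost without any single female PGC library or without female soma replicate 2 (limma adjusted p = 0.0530 to 0.142). By read depth Ier2 was lower in PGCs by −1.15 ± 0.12 in males and −1.26 ± 0.12 in females, with limma adjusted p values of 6.82e-07 and 2.99e-07.

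Dusp1 (chromosome 17, 26505590 to 26562128, minus strand), the phosphatase that inactivates p38, JNK and ERK, was the exception in males. It stood at 27.2, 32.3 and 27.7 CPM in male PGCs, above 19.1, 19.5 and 16.8 CPM in male soma. In females it stood at 12.0, 15 and 19.7 CPM in PGCs, below 41.2, 37.4 and 27.6 CPM in soma. PGC and soma libraries were apart in both sexes, in opposite directions. Per cell, Dusp1 was higher in PGCs of both sexes, by 2.28 ± 0.34 or 4.85-fold in males and by 1.24 ± 0.34 or 2.36-fold in females. The limma adjusted p values were 7.91e-11 and 0.000390. By read depth it was higher in male PGCs by 0.54 ± 0.13 and lower in female PGCs by −0.82 ± 0.13 (limma adjusted p = 0.00183 and 5.29e-05). Dusp1 shares 640 bases with Ergic1 on the opposite strand, which stood at 51.7 to 78.4 CPM in male PGCs, 121 to 132 in female PGCs, 191 to 197 in male soma and 142 to 200 in female soma. The part of Ergic1 reads in Dusp1 was not tested.

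Zfp36 (chromosome 7, 28376784 to 28380253, minus strand), which speeds the decay of AU-rich messages, stood at 15.1, 11.6 and 9.60 CPM in male PGCs and 29.1, 23.8 and 31.7 CPM in male soma. In female PGCs it stood at 1.48, 0.930 and 1.82 CPM, from 33, 6 and 19 reads, and in female soma at 54.7, 42.2 and 31.5 CPM. The female PGC libraries were below all others. Per cell, the male difference was 0.39 ± 0.40 (limma adjusted p = 0.353). Without male soma replicate 3 it was 0.79, called higher in PGCs (limma adjusted p = 0.0412). The female difference per cell was −2.46 ± 0.40, a 5.50-fold lower level in PGCs (limma adjusted p = 1.13e-09). By read depth Zfp36 was lower in PGCs by −0.78 ± 0.16 in males and −2.99 ± 0.16 in females (voom −1.05 ± 0.20 and −4.81 ± 0.62), and both were called.

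**Figure D2:**
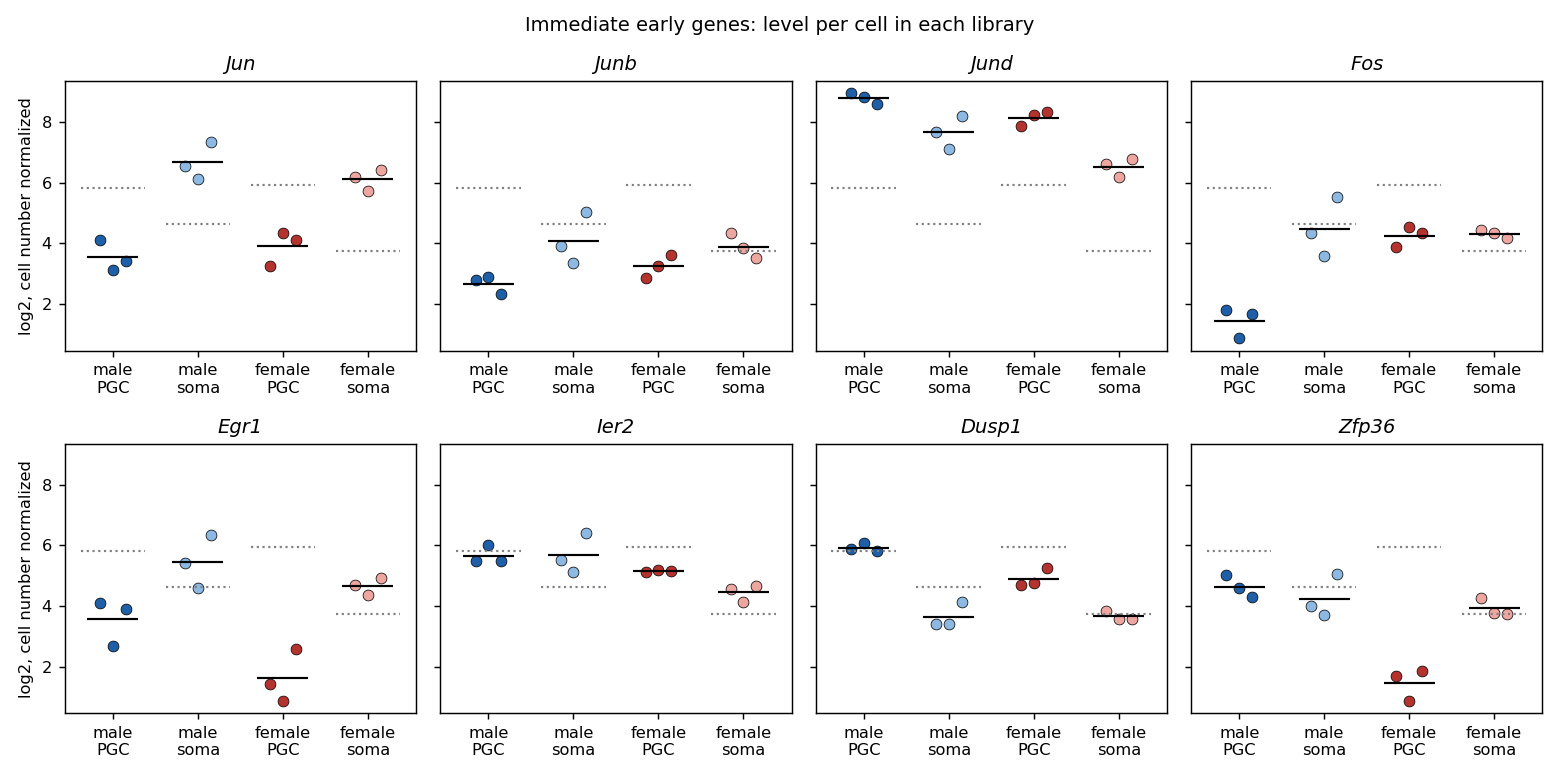
Log2 level per cell of the 8 genes in each library, by group; points are libraries, solid bars are means of 3 libraries and dotted bars are the mean of the library medians over all genes. Jund, the highest of the 8, is above the dotted bar in each group, whereas Jun lies under it in PGCs and over it in soma.

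Counted together per cell, 2 of the 8 genes were called higher and 4 lower in male PGCs than in male soma, against 64.0% of all genes called higher and 19.8% lower. In females 3 were called higher and 3 lower, against 77.2% and 11.5% of all genes. The median of the 8 differences was −0.72 in males and −0.36 in females, beside 1.42 and 2.36 for all genes. On the read depth scale 1 of the 8 was called higher and 7 lower in males, against 39.1% and 43.7% of all genes. In females 0 were higher (0 also at an unadjusted p under 0.05, and 0 with voom) and 8 lower, against 38.7% and 42.3%. The median differences were −1.51 in males and −1.93 in females, beside −0.06 and −0.05 for all genes. In males 7 of the 8 lay below the median gene on either scale, Dusp1 being the exception, and in females all 8 did. The direction of Jund and of the female Dusp1 and Ier2 differences turned between the scales. So did that of the male Zfp36 difference, which was not called per cell. In a per-cell table centred on library medians, which removes the global shift, 0 of the 8 were called higher and 8 lower in females, against 44.3% and 36.4% of all genes, and 1 higher and 6 lower in males, against 46.3% and 37.3%.

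**Figure D3:**
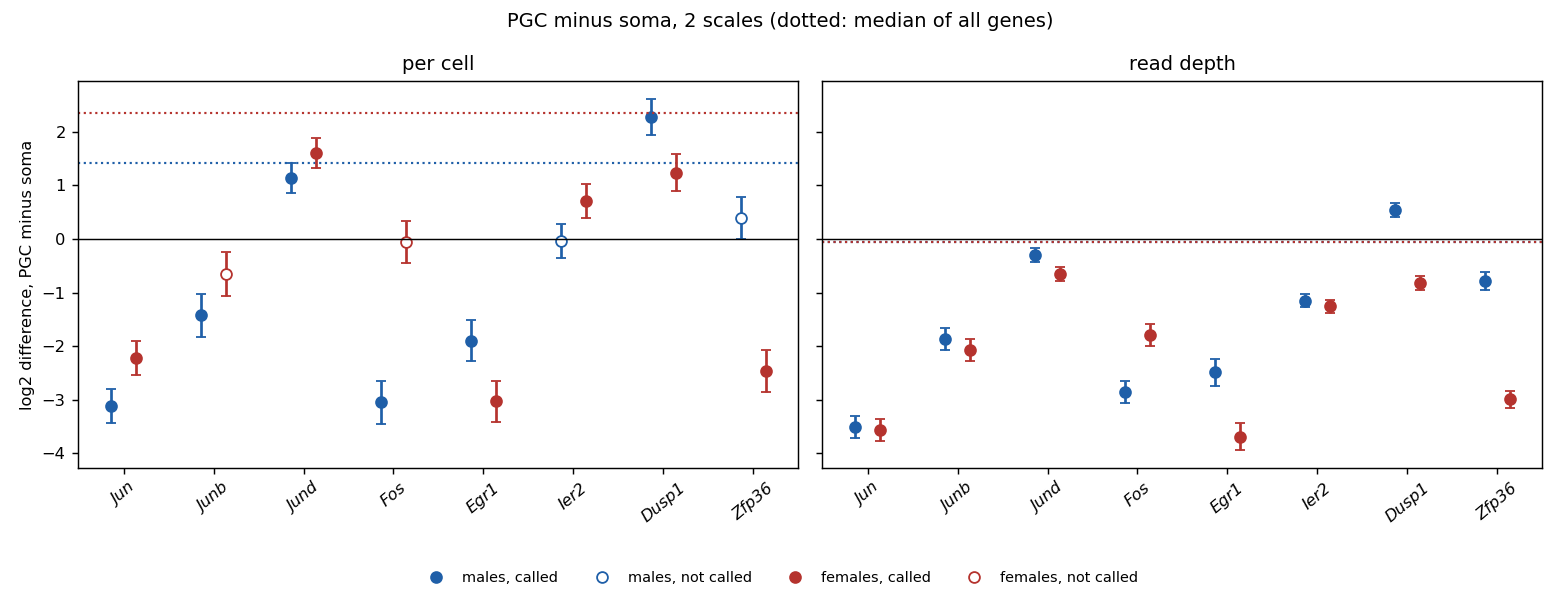
Log2 difference, PGC minus soma, of the 8 genes in males and females on the per-cell (left) and read depth (right) scales; bars are SE, filled points passed an adjusted p of 0.05, and dotted lines are the median of all genes. The points of Jund, Dusp1 and Ier2 in females lie above 0 per cell and below 0 by read depth.

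Female and male PGCs were compared next, to ask whether the germ cells differed from one another. Per cell, 1 of the 8 genes was called higher and 4 lower in female PGCs, against 24.3% and 17.7% of all genes. By read depth 1 was higher and 5 lower, against 32.8% and 32.5%. Fos was the gene called higher, by 2.82 ± 0.39 per cell (7.05-fold, limma adjusted p = 1.74e-11) and 1.59 ± 0.21 by read depth (limma adjusted p = 1.29e-05). With voom it was 2.60 ± 0.74 (6.06-fold, limma adjusted p = 0.00553). Zfp36 was lower by −3.17 ± 0.40 per cell (9.02-fold, limma adjusted p = 4.68e-14) and by −1.81 ± 0.16 on the read depth scale (limma adjusted p = 4.30e-07). With voom it was −3.17 ± 0.62 (9.03-fold, limma adjusted p = 0.000302). Fos messages are among those that Zfp36 protein is known to destabilise. In PGCs the pair moved in opposite directions between the sexes. In soma limma called neither of them on either deposited scale, though voom called both higher in females. A link between them was not tested. Egr1 was lower by −1.93 ± 0.38 per cell and −1.15 ± 0.25 by read depth, with limma adjusted p values of 3.06e-06 and 0.00115. With voom the Egr1 difference was −1.93 ± 0.86 and did not pass (limma adjusted p = 0.0592).

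Dusp1 was lower in female PGCs by −1.02 ± 0.34 per cell and −0.73 ± 0.13 by read depth, with limma adjusted p values of 0.00938 and 0.000242. Without female PGC replicate 1 the per-cell difference was −0.91 and was not called (limma adjusted p = 0.0616). Jund was lower by −0.66 ± 0.28 per cell, a call lost without any one of 8 libraries (limma adjusted p = 0.0440, and 0.0529 to 0.223 in those fits), and by −0.55 ± 0.13 by read depth (limma adjusted p = 0.00209). Ier2 was lower by −0.39 ± 0.12 by read depth (limma adjusted p = 0.0122), and its per-cell difference of −0.50 ± 0.32 did not pass (limma adjusted p = 0.202). The Ier2 call by read depth was lost without female PGC replicate 1 or male PGC replicate 2 (limma adjusted p = 0.0547 and 0.0607). Jun and Junb did not pass on either scale, at 0.34 ± 0.32 and 0.57 ± 0.40 per cell. Without female PGC replicate 1, Jun was called higher in female PGCs by read depth, at 0.47 (limma adjusted p = 0.0330).

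Markers of other cells also moved among the PGC libraries. Within female PGCs, replicate 2 had the highest summed macrophage markers, 11 CPM against 1.83 and 4.21 CPM, the highest pregranulosa and stroma markers, the highest Fos, Jun and Ier2, and the lowest Egr1 and Zfp36. In the male PGC libraries macrophage markers summed to 0.164 to 1.39 CPM. Within male PGCs, replicate 1 had the highest Sertoli markers, 84.0 CPM against 40.9 and 35.0 CPM, and the highest Jun, Jund, Fos, Egr1 and Zfp36. Zfp36 followed the order of the Sertoli markers over the 3 libraries. Macrophage and endothelial markers were also highest in male PGC replicate 1. Stroma, Leydig, pregranulosa and erythroid markers were highest in replicate 3, where Zfp36 was lowest. Without male PGC replicate 1 the female minus male difference of Zfp36 was −2.98 per cell and −1.69 by read depth. That of Egr1 was −1.66 and −0.99, and all these were called. Left out one library at a time, the female minus male difference of Fos in PGCs stayed between 2.53 and 3.01 per cell, and it was 2.67 without female PGC replicate 2. Pregranulosa markers summed to 16.5 to 33.0 CPM in female PGCs and 2.68 to 3.84 CPM in male PGCs. Sertoli markers summed to 1.43 to 2.17 CPM in female PGCs and 35.0 to 84.0 CPM in male PGCs. Leaving out 1 library keeps these differences between the sexes, so the part of these cells in the levels was not tested.

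**Figure D4:**
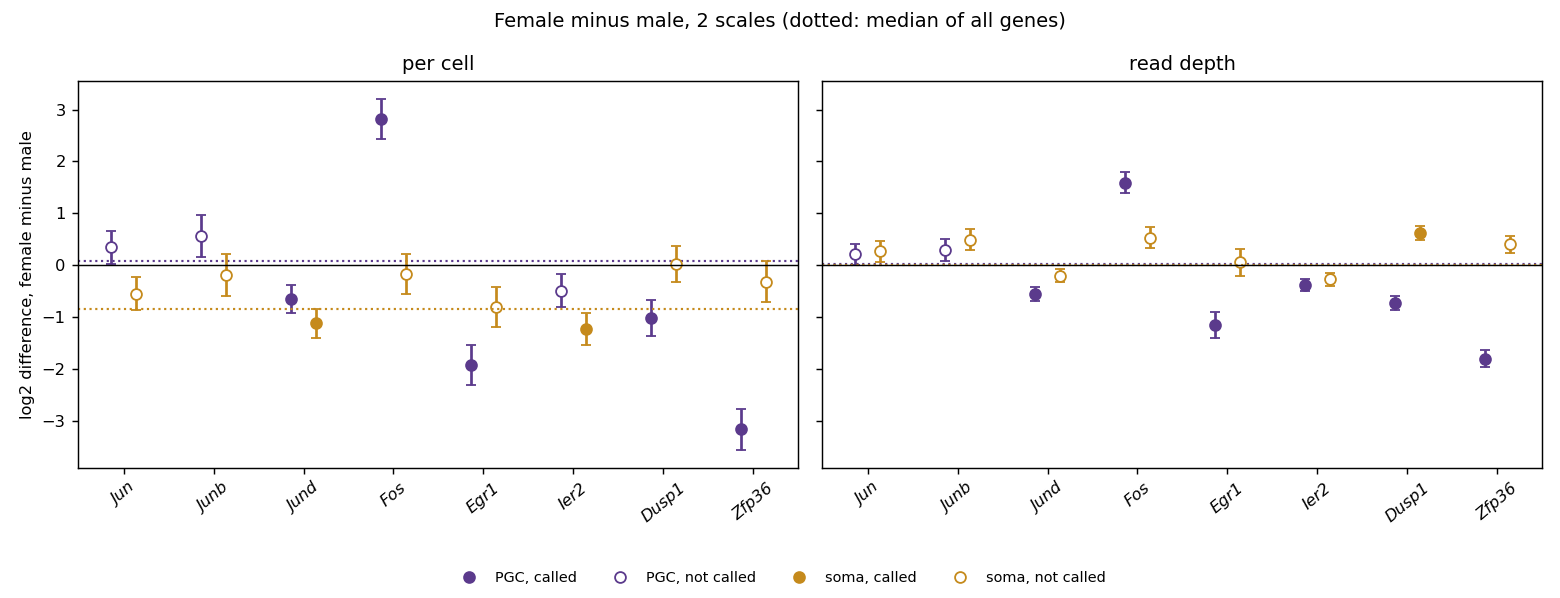
Log2 difference, female minus male, of the 8 genes in PGCs and in soma on the per-cell (left) and read depth (right) scales; bars are SE, filled points passed an adjusted p of 0.05, and dotted lines are the median of all genes. Fos in PGCs stands above 0 and Zfp36, Egr1 and Dusp1 in PGCs below 0 on both scales, while the per-cell dotted line of soma lies at −0.86.

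Female and male soma were compared in the same way. Per cell, 0 of the 8 genes were called higher and 2 lower in female soma, against 2.86% and 63.6% of all genes. Those called were Jund, at −1.13 ± 0.28, and Ier2, at −1.23 ± 0.32 (limma adjusted p = 0.000446 and 0.000709), beside a median of −0.86 over all genes. At an unadjusted p under 0.05 limma also placed 0 higher. On the read depth scale 1 was called higher and 0 lower, against 13.3% and 11.0% of all genes. At an unadjusted p under 0.05, 4 were higher and 1, Ier2, was lower, and with voom 0 were called lower. Dusp1 was the gene called, higher in female soma by 0.62 ± 0.13 (limma adjusted p = 0.00362), and its female soma libraries were all above the male ones. With voom, 4 were called higher, against 12.1% of all genes: Junb, Fos, Dusp1 and Zfp36, at 0.73, 0.76, 0.90 and 0.58. Female soma replicate 3 had the lowest Junb, Fos, Dusp1 and Zfp36 of its group, and without it Junb, Fos and Zfp36 were also called higher on the read depth scale, at 0.71, 0.67 and 0.55. Female soma held more macrophage and erythroid markers and fewer Leydig markers than male soma (sums above), and their part was not tested.

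The test of the difference between the sexes in the PGC and soma contrast called 1 of the 8 genes higher and 1 lower per cell, against 42.8% and 5.16% of all genes. Fos differed by 2.99 ± 0.56 (limma adjusted p = 9.08e-07) and Zfp36 by −2.85 ± 0.56 (limma adjusted p = 3.78e-06), beside a median of 0.91 over all genes. By read depth 1 was higher and 3 were lower, against 27.9% and 28.9%. Fos differed by 1.06 ± 0.29, Egr1 by −1.20 ± 0.36, Dusp1 by −1.36 ± 0.19 and Zfp36 by −2.21 ± 0.23, with limma adjusted p values of 0.00695, 0.0109, 4.01e-05 and 3.63e-06. With voom the Fos difference was 1.85 ± 0.77 and that of Egr1 −2.05 ± 0.89, and neither passed (limma adjusted p = 0.0562 and 0.0630). The voom differences of Dusp1 and Zfp36 were −2.07 ± 0.26 and −3.76 ± 0.65, and both were called. Jund, at −0.35 ± 0.19 by read depth, was not called there (limma adjusted p = 0.123), and was called with voom at −0.55 ± 0.22 (limma adjusted p = 0.0438). The difference of Jun was −0.06 ± 0.29 on the read depth scale and did not pass (limma adjusted p = 0.871).

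The order of the 4 groups by level per cell was not shared among the genes. Jun, Junb, Fos and Egr1 were highest in male soma, with female soma next, and for each the soma groups overlapped. Jund and Dusp1 were highest in male PGCs, without overlap with female PGCs below them. Ier2 had male soma and male PGCs level, at 5.68 and 5.65, with female soma lowest. Zfp36 had male PGCs, male soma and female soma overlapping in turn at 4.64, 4.25 and 3.92, and female PGCs apart at 1.46. By mean CPM, all but Dusp1 were highest in the soma groups, and Dusp1 was highest in female soma with male PGCs next. Only Jun, Junb and Fos had female PGCs above male PGCs on average.

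Other immediate early and early response genes were read from a list of 47 symbols, of which 37 were measured. Per cell, 17 were called higher and 11 lower in male PGCs, against 64.0% and 19.8% of all genes. In female PGCs 19 were higher and 9 lower, against 77.2% and 11.5%. The median differences per cell were 0.26 and 1.04, beside 1.42 and 2.36 for all genes. By read depth 10 were higher and 23 lower in males, against 39.1% and 43.7% of all genes, and 7 higher and 28 lower in females, against 38.7% and 42.3%. The median differences were −0.75 and −0.92, beside −0.06 and −0.05. Zfp36l1 and Zfp36l2, close relatives of Zfp36, were the highest of the list. Zfp36l1 stood at 64.9 ± 5.93 CPM in male PGCs and 519 ± 15.4 in male soma, and at 28.8 ± 8.17 and 540 ± 98.3 CPM in the female groups (SD, n = 3). Zfp36l2 stood at 155 ± 25.4, 263 ± 3.78, 93.5 ± 8.85 and 227 ± 7.96 CPM in the same order. Like Zfp36, both were lower in female than in male PGCs by read depth, at −1.003 ± 0.13 and −0.67 ± 0.08. Cyr61, a secreted matrix protein, stood at 0.276 ± 0.109 and 0.236 ± 0.335 CPM in male and female PGCs against 36.1 ± 3.32 and 35.1 ± 7.73 CPM in soma.

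Egr4, a relative of Egr1, was found mainly in male PGCs. It stood at 113, 58 and 90.6 CPM there, and at 1.70, 1.09 and 1.05 CPM in female PGCs. Male soma held 2, 0 and 5 Egr4 reads and female soma 0, 1 and 0, too few for a fold. The Egr4 difference between female and male PGCs was −5.23 ± 0.32 by read depth. Egr4 was above 1.70 CPM only in male PGCs, so it passed the filter on low values (described below) through that group alone. No p-value is therefore given for that difference. Nab2, a corepressor that Egr proteins induce and bind, stood at 85.2, 28.1 and 73.8 CPM in male PGCs and 11.9, 15.8 and 11.3 CPM in female PGCs. Within male PGCs replicate 2 was the lowest of the group by CPM for Egr1, Egr4 and Nab2, but also for Jun and Fos. The same library was the highest for Junb, Ier2 and Dusp1, and a link between Egr and Nab2 levels was not tested. Nab2 was lower in female than in male PGCs, at −2.22 ± 0.30 per cell and −1.66 ± 0.24 by read depth, and so was Nab1, at −0.74 ± 0.30 and −0.60 ± 0.16, so both corepressors passed on either scale. The Nab1 call per cell was lost without any one of 5 libraries.

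**Figure D5:**
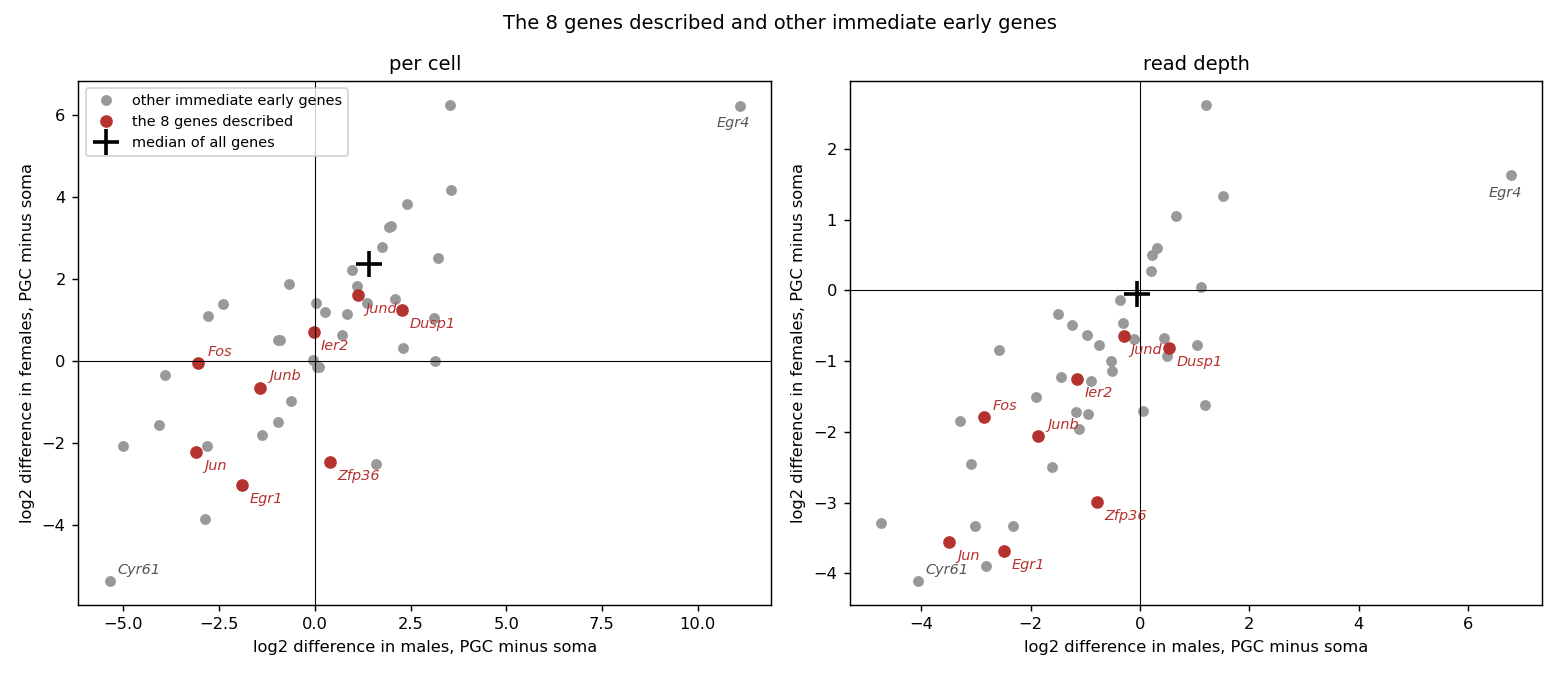
Log2 difference, PGC minus soma, in males (x axis) and females (y axis) for the 8 genes described and 37 other immediate early genes, per cell (left) and by read depth (right); each point is a gene and the cross is the median of all genes. Cyr61 lies at the lower left of each plot and Egr4 at the far right.

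The AP-1 partners, 9 of 11 measured, had 1 member called higher and 6 lower in male PGCs by read depth, against 39.1% and 43.7% of all genes, and 1 higher and 5 lower in female PGCs, against 38.7% and 42.3%. Per cell, 5 were higher and 4 lower in males, against 64.0% and 19.8%, and 4 and 3 in females, against 77.2% and 11.5%. Fosl2, another Fos family member, stood at 0.908, 1.48 and 1.86 CPM in male PGCs and 125, 144 and 145 CPM in male soma. In females it stood at 2.86, 3.56 and 2.10 CPM in PGCs and 60.9, 56.3 and 77.1 CPM in soma. Like Fos, it was higher in female than in male PGCs, by 0.94 ± 0.38 per cell and 0.53 ± 0.16 by read depth (limma adjusted p = 0.0376 and 0.0110). Maf was at 0.537 ± 0.285 and 0.906 ± 0.692 CPM in male and female PGCs against 177 ± 4.36 and 141 ± 8.16 CPM in soma. Atf4, a partner induced by stress signalling, and Atf7 were the highest of the list. Atf4 was lower in female than in male PGCs by −0.90 ± 0.10 by read depth, and Atf7 did not differ between them beyond its error, at 0.03 ± 0.10.

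Of 26 genes of the ERK, JNK and p38 cascades, 21 were called higher and 1 lower per cell in male PGCs, and 25 higher and 1 lower in female PGCs, where 64.0% and 77.2% of all genes were higher and 19.8% and 11.5% lower. By read depth 10 were higher and 10 lower in males, and 14 and 8 in females, where 39.1% and 38.7% of all genes were higher and 43.7% and 42.3% lower. The median of the list was 1.44 in males and 2.78 in females per cell, beside 1.42 and 2.36 for all genes, and the male share called higher by read depth was near that of all genes. Mapk14 (p38 alpha) stood at 152 ± 27.0 CPM in male and 297 ± 15.4 in female PGCs, and its female minus male difference by read depth was 0.66 ± 0.09. The 1 called lower per cell in each sex was Rps6ka4, a kinase of CREB and histone H3, at 0.625 ± 0.291 and 1.06 ± 0.289 CPM in male and female PGCs against 40.8 ± 5.82 and 30.6 ± 1.56 CPM in soma. Rps6ka4 passed the filter on low values (described below) through its soma libraries. Of 14 SRF, ETS partner and CREB factors with their coactivators, 8 were higher and 2 lower per cell in males and 13 and 1 in females, and by read depth 4 were higher and 8 lower in both sexes, beside the same shares of all genes. The list medians by read depth were −0.34 and −0.45, beside −0.06 and −0.05 for all genes. The coactivators Ep300 and Crebbp stood at 284 ± 34.2 and 182 ± 31.2 CPM in male PGCs and 255 ± 15.7 and 133 ± 18.2 in female PGCs, and Atf1 at 157 ± 18.5 and 122 ± 12.2. Elk3, an ETS partner of SRF that can repress Fos, stood at 0.893 ± 0.496 CPM in male and 3.64 ± 0.260 in female PGCs, against 78.8 ± 1.69 and 92.4 ± 21.1 CPM in soma.

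Among the phosphatases related to Dusp1, 8 of 10 measured, 7 were higher and 1 lower per cell in male PGCs and 7 higher and 0 lower in female PGCs, where 64.0% and 77.2% of all genes were higher and 19.8% and 11.5% lower. The 1 lower in males was Dusp8, at −2.57, named after its value was seen. By read depth 4 were higher and 4 lower in males and 4 and 3 in females, where 39.1% and 38.7% of all genes were higher and 43.7% and 42.3% lower. Dusp9, which acts on ERK, stood at 105, 83.6 and 106 CPM in male PGCs and 402, 416 and 537 CPM in female PGCs, against 12.7 to 16.7 in male soma and 20.2 to 33.9 in female soma. Its female minus male difference in PGCs, 1.69 ± 0.14 by read depth (limma adjusted p = 1.87e-07), had the opposite sign to that of Dusp1. Dusp14 was at 18.9 ± 3.80 CPM in male and 8.9 ± 2.07 in female PGCs and 0.941 ± 0.225 and 1.15 ± 0.655 in male and female soma, and Dusp7 at 38.4 ± 7.25 and 32.7 ± 5.93 in PGCs. Of 14 genes of AU-rich element decay, the pathway in which Zfp36 acts, 11 were higher and 1 lower per cell in males and 13 and 1 in females, and by read depth 5 were higher and 6 lower in both sexes, which by read depth is near the shares of all genes just given. The list medians per cell, 1.45 and 2.43, lay beside 1.42 and 2.36 for all genes. The deadenylase scaffold Cnot1 stood at 688 ± 45.5 CPM in male and 953 ± 34.4 in female PGCs, Hnrnpd at 367 ± 54.7 and 336 ± 36.4, and Cnot2 at 314 ± 29.4 and 180 ± 17.9.

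Heat shock genes, a list of inducible and constitutive chaperones, did not move as one. By read depth 8 of 12 were called higher and 3 lower in male PGCs, against 39.1% and 43.7% of all genes, and 8 and 4 in female PGCs, against 38.7% and 42.3%. Per cell 9 were higher and 2 lower in males and 10 higher in females, against 64.0% and 19.8%, and 77.2%, of all genes. Hspa1a, Hspa1b and Hspb1, named after their values were seen, were those called lower by read depth in males, at −1.65, −1.49 and −1.88. They were lower in females too, at −0.73, −1.30 and −0.39. The other one lower in females was Bag3, at −0.72. Hsp90aa1 stood at 5559 ± 46.2 CPM in male and 4680 ± 251 in female PGCs, against 570 ± 23.2 and 839 ± 218 CPM in soma. Hspa8 stood at 4843 ± 197 and 3339 ± 273 CPM in male and female PGCs, Hsp90ab1 at 5653 ± 267 and 3560 ± 248, and Hsph1 at 434 ± 55.9 and 276 ± 9.22. In female against male PGCs 11 of the 12 were lower by read depth and 1, Hspb1, was higher, against 32.5% and 32.8% of all genes. Per cell 7 were lower and 1 higher, against 17.7% and 24.3%, and with 1 library left out the number lower ranged from 3 to 9.

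The genes most like each member were found by the root mean square difference (RMS, in log2 units) between profiles centred on their mean over the 12 libraries of the read depth table, among 12260 other genes. The nearest were Ifnar2 to Jun (RMS 0.232), Csf2rb to Junb (0.169), Map1lc3a to Jund (0.105) and Fam46a to Fos (0.211). Csf2rb was nearly absent from PGCs, at 0 and 0.0149 CPM on average in males and females, where Junb stood at 3.07 and 4.95. The read depth table is compressed, so a near profile need not mean a like fold in reads. Tubb2a was nearest to Egr1 (0.313), Znrf1 to Ier2 (0.131), Pabpc1 to Dusp1 (0.137) and Slc38a2 to Zfp36 (0.194). Slc38a2 shared the low female PGC level of Zfp36, at 38.1 CPM on average against 166 in male PGCs, 373 in male soma and 478 in female soma. Fam46a shared the order of Fos, at 0.830, 4.90, 23.0 and 36.2 CPM in male PGCs, female PGCs, male soma and female soma. The mean profile of the 8 genes, whose own RMS was 0.934, was nearest to Spef1 (0.160), Tmsb10 (0.168), Slc12a9 (0.168), Gab1 (0.171) and Ndrg1 (0.172).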

How the data were processed

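RNA was sequenced in 12 libraries of sorted gonadal cells, 3 per group; the sample titles gave each library's group and replicate number. Per the labels' protocols, a directional messenger RNA kit turned 8 to 13 ng of RNA into each library. Per the submitters' processing notes, reads were handled on build mm10 with TopHat2 2.0.9, Trim Galore 0.4.0 and HTSeq 0.6.1p1, and the statistics tools were limma 3.28.14, edgeR 3.14.0 and DESeq2 1.12.3 in R 3.3.0; no step is tied to a tool there. Which annotation, strand setting and gene filter were used was not given in the sources used here.

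The authors deposited 2 tables of log2 values over 12845 genes, one read here as normalized to cell number, from the abbreviation in its name and the spike-in protocol, and one normalized to read depth. All values of the first inverted to whole reads (log2 of reads plus 0.5 over a library's effective size, within 0.001 reads), which gave CPM and depth over these genes. For the second, the transform was not given in these sources. No spike-in genes were analysed here. The third highest library of each gene was at 5.07 CPM or more, so all 8 measured genes had passed a filter on low values before deposit, and a gene high in 1 group only could pass through that group. Junb and Egr1, and from the lists Cyr61, Maf, Fosl2, Elk3 and Rps6ka4, reached that level in fewer than 3 PGC libraries. They passed through soma, so a lower level in PGCs was favoured for them by the filter. Replicate libraries differed by more than counting error allows (chi-square over degrees of freedom, 5.43 to 30.4).

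Each table was fitted with limma 3.58.1 in R 4.3.3, with a mean for each of the 4 groups, an eBayes trend on intensity and p-values adjusted by Benjamini-Hochberg over all genes, and a gene was called at an adjusted p of 0.05. The fit was tested on simulated data. Per cell, limma drew each gene's spread wholly from the trend, so the SE of a gene does not follow its own libraries. Exon lengths, for RPKM, and positions came from GENCODE vM21 as merged exons of all transcripts. Numpy 2.4.6, pandas 2.3.3 and matplotlib 3.10.9 in Python 3.11.15 served for tables and plots. The alternatives were each library left out, the lowest 25% of genes left out, no intensity trend, a replicate block, median centring and, for read depth, voom with TMM scaling and log2(CPM + 1) on the recovered reads. Each gene's own spread, and leaving out male and female soma replicate 3 together, were added after seeing the data.

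The genes, lists, markers and motifs were chosen with earlier results of these data known. Genes named from a list were the 2 highest in mean CPM and the 2 with the largest absolute mean difference per cell between PGCs and soma. Likeness named the nearest gene to each profile and the 5 nearest to the mean profile, with pseudogenes, small RNAs and unnamed gene models left out. A gene that the rule for lists would name is not reported here.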

Additional observations from a re-analysis of the deposited data

Results flagged for a closer look

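By read depth, the test of the difference between the sexes in the PGC and soma contrast called 4 of the 8 genes. Of these 1 was higher and 3 were lower, against 27.9% and 28.9% of all genes. Per cell it called 1 higher and 1 lower, against 42.8% and 5.16%. Fos differed, female minus male, by 2.99 per cell and 1.06 by read depth, and its level was higher in 3 of 3 female PGC libraries than in any male PGC library. Zfp36 differed by −2.85 per cell and −2.21 by read depth, with 3 of 3 female PGC libraries under all male ones. Egr1 differed by −1.20 and Dusp1 by −1.36 on the read depth scale. With voom the Fos and Egr1 differences, 1.85 and −2.05, did not pass (limma adjusted p = 0.0562 and 0.063). Per cell the Egr1 and Dusp1 differences, −1.13 and −1.04, did not pass (limma adjusted p = 0.0705 and 0.0635).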

How the results depend on the processing

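Median centring of the per-cell table, which removes the shift between groups, changed the most results. In females the 8 genes gave 0 higher and 8 lower in PGCs, with 5690 and 4675 of all genes, and the list of other immediate early genes 7 and 26. In males 1 of the 8 was higher, 4785 of all genes were lower, and 20 of the list were lower. The sex difference of the contrast had 3 of the 8 lower, with 3189 higher and 3802 lower of all genes. Female against male PGCs had 4453 of all genes lower, and female against male soma 1 of the 8 higher and 0 lower, with 1296 and 1074 of all genes. Signs turned under centring for PGCs against soma in Jund (−0.0738 in males, −0.59 in females), Dusp1 (−0.96 in females), Ier2 (−1.49 in females) and Zfp36 (−0.82 in males). They also turned for the sex difference of the contrast in Jun (−0.10), Junb (−0.22), Jund (−0.52) and Ier2 (−0.26), and for female against male soma in Jun (0.34), Junb (0.68), Fos (0.71), Egr1 (0.0794) and Zfp36 (0.56).

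Without the lowest 25% of genes fewer genes were tested. All genes called lower then numbered 1188 in males and 575 in females per cell, 3646 and 3593 by read depth, and 357 for the sex difference per cell. All genes called higher numbered 2066 in female PGCs per cell, and 141 per cell and 878 by read depth in female soma. The list of other immediate early genes then had 6 lower in males and 4 in females per cell, 4 higher in females by read depth, and 5 and 7 higher in female than in male PGCs per cell and by read depth. With each gene's own spread 2 of the 8 and 424 of all genes were lower for the sex difference per cell, 197 of all genes were higher in female soma and 7 of the list higher in female PGCs. Without an intensity trend 2 of the 8 were lower for that sex difference.

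Without male and female soma replicate 3 together, 2 of the 8 and 1126 of all genes were lower for the sex difference per cell, 3676 of all genes lower in female PGCs and 583 higher in female soma. Female minus male soma then turned in Fos (0.43), Junb (0.47) and Zfp36 (0.16), as did PGCs against soma in males in Ier2 (0.34). With voom 0 of the 8 were higher for the sex difference by read depth and 4 higher in female soma, and log2(CPM + 1) turned only the Jun sex difference (0.037).

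With 1 library left out, the 8 genes gave 1 to 2 higher and 1 to 2 lower for the sex difference per cell (all genes lower, 520 to 1184), 2 to 5 lower and, by read depth, 1 to 2 higher in female PGCs, and in female soma 2 to 4 lower per cell and 1 to 4 higher by read depth. All genes lower in female soma per cell ranged from 5093 to 8880, the lowest without female soma replicate 2, and the list gave 6 to 12 higher in female PGCs per cell. Per-cell differences that changed sign ranged from −0.31 to 0.34 for Ier2 in males and from −0.20 to 0.13 for Fos in females. For female minus male soma they ranged from −0.10 to 0.27 for Dusp1, −0.63 to 0.36 for Fos, −0.58 to 0.28 for Junb and −0.601 to 0.0758 for Zfp36. By read depth Egr1 in soma ranged from −0.15 to 0.16, and the sex differences of Ier2 and Jun from −0.189 to 0.0187 and from −0.26 to 0.20.

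Same-numbered libraries did not deviate together (0 of 18 pairs over a correlation of 0.1 on either scale), so the numbers were not taken as pairs. With a replicate block all counts kept within 1.5 times of their value, Egr1 was called in female against male soma per cell (−0.81, limma adjusted p = 0.0435) and the Jund call in males by read depth was lost (limma adjusted p = 0.0688). The cause of these changes was not tested beyond what each setting does. Depth limits Egr1 and Zfp36 in female PGCs, with 6 reads each in replicate 2, and p-values rest on 3 libraries a group.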
